A study of Mus musculus with 16 samples.

Results

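The interaction between loss of Trbp in cardiomyocytes and pressure overload was examined in the ventricles of male mice. It asks, gene by gene, whether the deletion changed expression differently after transverse aortic constriction (TAC) than after sham surgery. All 16 hearts of the 16 sequenced entered this comparison, 4 in each of 4 groups. Every mouse carried the same alleles, floxed Trbp on both chromosomes and the tamoxifen-dependent Cre recombinase MerCreMer under the αMHC promoter, which is active in cardiomyocytes. Trbp-cKO mice received tamoxifen by intraperitoneal injection, 30 mg/kg daily on 5 days starting when they were 4 weeks old, whereas control mice were given corn oil. Both genotypes then had sham surgery or TAC, and ventricles were taken 8 weeks later, at the age of 16 weeks. Control mice thus also carried Cre and the floxed alleles but never had tamoxifen, so the effect of tamoxifen with active Cre and the effect of losing Trbp cannot be told apart. The deletion was limited to cardiomyocytes, whereas RNA came from all cells of the ventricle. A tamoxifen-treated floxed control without Cre was not analysed here.

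Trbp, encoded by Tarbp2, is a protein that binds double-stranded RNA, a partner of Dicer in microRNA processing and an inhibitor of the interferon-induced kinase PKR. TAC narrows the aorta and forces the left ventricle to pump against a raised pressure. Cardiomyocytes answer such a load with growth, a return of fetal genes and release of natriuretic peptides, and cardiac fibroblasts lay down matrix under the control of TGF-β. An interaction is a difference of differences. It was computed here as the log2 effect of the deletion in TAC hearts minus the log2 effect of the deletion in sham hearts. A higher interaction therefore means that the deletion raised a gene more, or lowered it less, after TAC than after sham, and a lower interaction means the reverse.

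Counts summed to between 45166994 and 68274222 per heart, and expression is given as CPM, the counts of a gene scaled to a common library size after TMM adjustment. Tarbp2 (ENSMUSG00000023051) had 30.6, 32.7, 33.3 and 32.4 CPM in control sham and 25.2, 21.1, 30.6 and 31.1 CPM in control TAC hearts, against 9.09, 8.39, 11.4 and 9.21 CPM in Trbp-cKO hearts with sham surgery and 7.14, 8.57, 9.05 and 9.74 CPM in those with TAC. All 8 Trbp-cKO hearts were below all 8 control hearts, and the loss did not detectably differ between the surgeries (log2 interaction 0.11, standard error (SE) 0.19, adjusted p = 0.815, edgeR's quasi-likelihood test). Defining markers of cardiomyocytes were present in every heart. The 15 of the list summed to 70278 to 74418 CPM in control sham and 29224 to 70244 CPM in control TAC hearts. In Trbp-cKO hearts they summed to 59595 to 70716 CPM after sham and 40204 to 68769 CPM after TAC. Control TAC hearts 1 and 2 stood apart from the other hearts by their share of transcripts from the mitochondrial chromosome, which was 38.15% and 38.78% against 18.15% to 26.27% elsewhere. Leaving both out, an alternative added after the data had been seen, ended 12 of the calls described below. They were Bmp4, Fbn2, Egr2, Nr4a3, Atf3, Errfi1, Hsp90aa1, Ddah1, Prnd, Hmcn2, Ddx60 and Gfra3, with adjusted p from 0.0519 to 0.111, and each kept its sign. The log2 interaction stayed close to that with all hearts for Fbn2 (2.58), Egr2 (3.91), Nr4a3 (2.52), Atf3 (2.22), Errfi1 (2.52), Hsp90aa1 (1.26) and Ddah1 (1.12). It was smaller in size for Bmp4 (-0.97), Prnd (-1.65), Hmcn2 (-1.85), Ddx60 (-1.58) and Gfra3 (-1.73).

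Of 19955 genes tested, 174 had an interaction that passed both limits, which were 0.05 for the adjusted p and 0.8 for the size of the log2 value. The interaction was higher for 89 genes (0.446% of those tested) and lower for 85 (0.426%), with medians of 1.42 and -1.45 among the called genes and a median of -0.01 over all genes. At an unadjusted p under 0.05 there were 1432 genes (7.18%) with a higher and 1637 (8.2%) with a lower interaction. For most of the 174 the estimated effect of the deletion had opposite signs in the 2 settings. The difference of these 2 effects selected the genes, so the signs only describe them. The deletion itself was called in neither setting for 21 of the 89 and 35 of the 85. For 70 of the 89 genes with a higher interaction the estimated effect of the deletion was below 0 after sham and above 0 after TAC, and for 81 of the 85 with a lower interaction it was above 0 after sham and below 0 after TAC. With library size as the only scaling the split was 98 higher and 56 lower. Leaving out 1 heart at a time gave between 57 calls, without control sham replicate 3, and 397, without control TAC replicate 4, and each of the 174 genes kept its sign in all 16 of these fits. For 17 genes of the first set and 1 of the second the estimated effect had the same direction in both settings and was larger after TAC.

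Read across the other axis, the same 174 genes differed in their response to TAC. Among the 89 genes with a higher interaction, TAC was called higher in Trbp-cKO hearts for 65 and lower for 0, while in control hearts it was called higher for 8 and lower for 16. Among the 85 with a lower interaction, TAC was called lower in Trbp-cKO hearts for 48 and higher for 0, while in control hearts it was called lower for 2 and higher for 20. These counts describe genes that the interaction selected, since each response is part of that contrast. Over all genes, TAC was called for 748 genes (3.75%) in control and for 1112 (5.57%) in Trbp-cKO hearts. The deletion was called for 193 genes (0.967%) after sham and for 491 (2.46%) after TAC. Of these, 47 of the 193 (24.4%) and 77 of the 491 (15.7%) had a called interaction. The deletion was called in both settings for 45 genes, in the same direction for 39 and in opposite directions for 6.

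**Figure D1:**
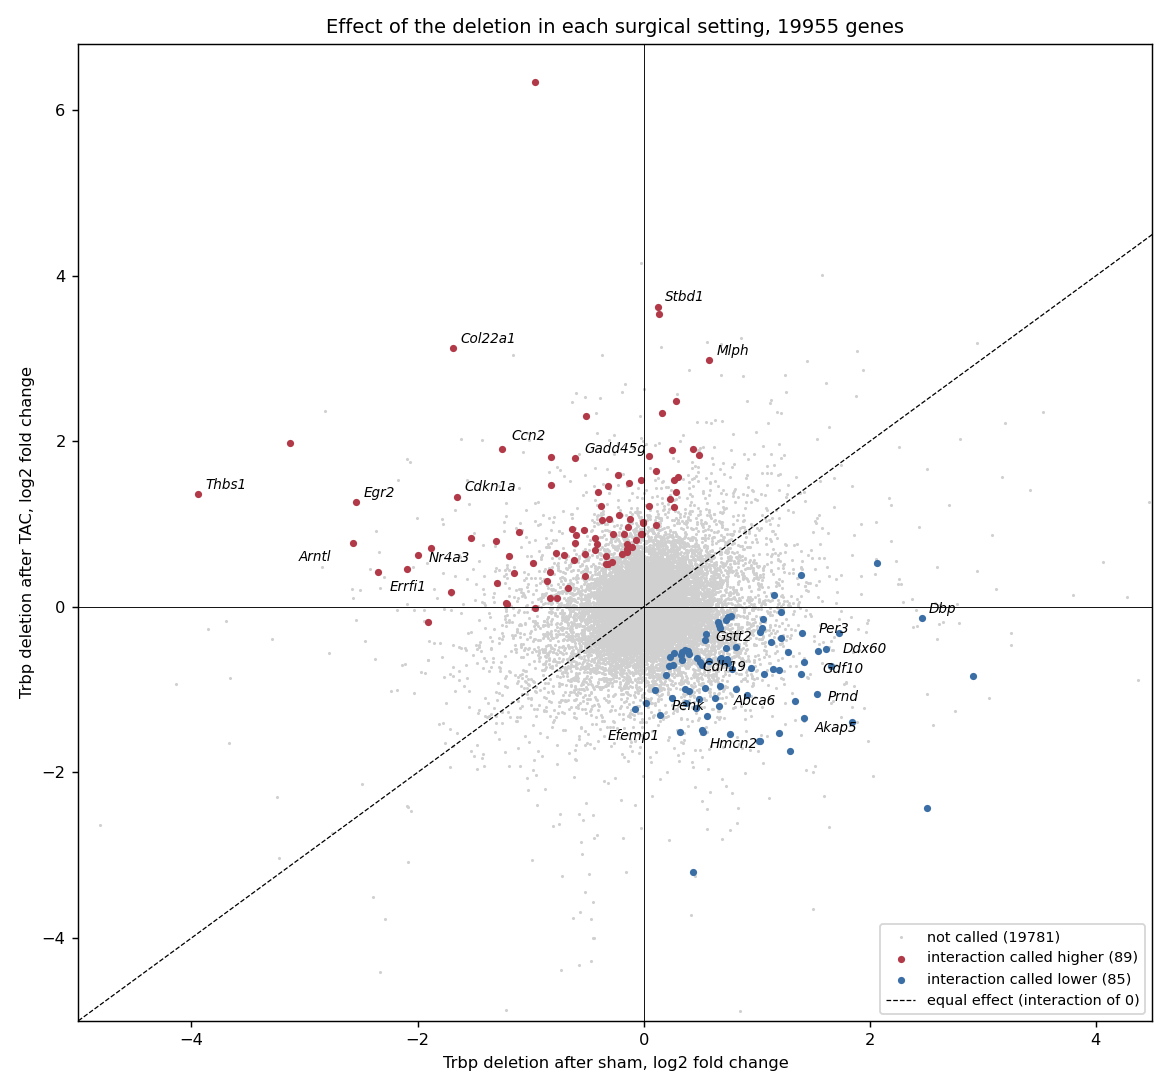
Log2 effect of the deletion (Trbp-cKO over control) after sham surgery (horizontal axis) and after TAC (vertical axis), 1 point per gene for the 19955 genes tested. The 89 genes with a higher interaction lie above the dashed line of equal effect, most of them in the upper left part, and the 85 with a lower interaction lie below it, most of them in the lower right part. Labels name genes among the 12 highest and 12 lowest interactions whose mean log2 CPM was 1 or more.

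Ccn2, Cdkn1a and Rcan1 were lowered by the deletion after sham and raised by it after TAC, each past both thresholds. Ccn2 (ENSMUSG00000019997, chromosome 10, 24595442 to 24598683 on GRCm38) encodes connective tissue growth factor, a matricellular protein that acts with TGF-β. Its CPM was 194, 172, 192 and 131 after sham and 257, 359.9, 163 and 308 after TAC in control hearts, against 81.5, 60.6, 81.7 and 65.4 after sham and 1032, 720.5, 1088 and 1239 after TAC in Trbp-cKO hearts. The 4 Trbp-cKO sham hearts were the lowest and the 4 Trbp-cKO TAC hearts the highest of all 16, with no overlap. The deletion effect was -1.25 after sham (adjusted p = 0.0143) and 1.91 after TAC (adjusted p = 0.000334) on the log2 scale, so the interaction reached 3.16 (SE 0.33, adjusted p = 0.000604). The call held with each heart left out in turn, at 2.98 to 3.32.

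Cdkn1a encodes p21, an inhibitor of cyclin-dependent kinases that is induced by p53 and by glucocorticoids. It had 78.7, 49.8, 86.1 and 66.1 CPM in control sham and 27.8, 39.0, 23.8 and 32.3 in control TAC hearts, and 26.3, 19.4, 26.4 and 17.4 in Trbp-cKO sham hearts and 55.3, 54.9, 50.4 and 148 in those with TAC. Every Trbp-cKO TAC heart was above every control TAC heart and every Trbp-cKO sham heart, but the range overlapped that of control sham hearts, and replicate 4 was far above its group. TAC changed Cdkn1a in opposite directions in the genotypes, at -1.19 in control (adjusted p = 0.0364) and 1.79 in Trbp-cKO hearts (adjusted p = 0.00195), and its log2 interaction was 2.98 (SE 0.44, adjusted p = 0.00635). Rcan1 encodes a regulator of calcineurin and is itself a target of calcineurin and NFAT in hypertrophy. Its CPM was 159, 147, 164 and 172 in sham-operated and 175, 201, 137 and 179.9 in banded control hearts, and 71.7, 86.5, 67.3 and 73.3 in sham-operated and 294, 350.0, 492 and 160.2 in banded Trbp-cKO hearts. Control hearts lay in the same range after both surgeries, Trbp-cKO sham hearts lay below them, and 3 of the 4 Trbp-cKO TAC hearts lay above them, replicate 4 being the exception. The interaction of Rcan1 was 2.01 on the log2 scale (SE 0.34, adjusted p = 0.0122).

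The reverse pattern, raised by the deletion after sham and lowered after TAC, was called for Cdh19, Akap5 and the unnamed transcript 9430062P05Rik. Akap5 encodes an anchoring protein that holds protein kinase A and calcineurin near membrane receptors and channels. Its CPM was 3.33, 3.87, 2.63 and 2.73 in controls with sham surgery, 10.6, 10.1, 4.97 and 3.79 in controls with TAC, 6.41, 8.57, 9.21 and 9.45 in Trbp-cKO with sham surgery and 2.87, 4.30, 2.67 and 1.83 in Trbp-cKO with TAC. Trbp-cKO sham hearts were all above both the control sham and the Trbp-cKO TAC hearts, whereas the control TAC hearts split, replicates 1 and 2 lying above replicates 3 and 4. The log2 interaction was -2.76 (SE 0.44, adjusted p = 0.00963) with all hearts and -2.01 (adjusted p = 0.0145) without control TAC hearts 1 and 2. Cdh19, a cadherin of the Schwann cell lineage, had 2.65, 2.77, 3.84 and 3.60 CPM after sham and 4.84, 4.06, 5.65 and 5.90 after TAC in control hearts, against 5.00, 6.79, 9.13 and 5.86 after sham and 3.45, 3.15, 2.19 and 2.87 after TAC in Trbp-cKO hearts. Each of the 4 Trbp-cKO TAC hearts lay below all control TAC and all Trbp-cKO sham hearts, for a log2 interaction of -1.87 (SE 0.29, adjusted p = 0.00701). The transcript 9430062P05Rik, named here after its values had been seen, had 0.718 to 1.01 CPM in control sham, 1.08 to 3.06 in control TAC, 2.66 to 3.86 in Trbp-cKO sham and 0.381 to 1.06 in Trbp-cKO TAC hearts, for a log2 interaction of -3.24 (SE 0.48, adjusted p = 0.00635).

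Matrix genes and genes of TGF-β signaling gave calls in both directions. Of 34 tested genes of TGF-β ligands, binders, receptors and SMADs, 3 had a higher interaction, Thbs1 and Tgfb2 among them, and 1 a lower (Bmp4), 11 and 1 at an unadjusted p under 0.05, and the median was 0.25. Of 31 elastic fiber and matricellular genes, 4 were higher (Thbs1, Ccn2, Ccn4 and Fbn2) and 1 lower (Efemp1), 11 and 1 at an unadjusted p under 0.05, with a median of 0.32. The latter median was 0.58 without control TAC replicate 2, 0.16 without Trbp-cKO TAC replicate 4 and 0.99 without control TAC hearts 1 and 2. Only Col22a1 was called among 40 collagen chains, at a median of 0.28 for the list, and 0 of 27 collagen-modifying enzymes and cross-linkers were called by edgeR and 4 by DESeq2 (3 higher, 1 lower), although 9 were higher and 2 lower at an unadjusted p under 0.05. The median of the collagen chains was 0.03 without Trbp-cKO TAC replicate 4, 0.43 without replicate 2 of that group and 0.54 without control TAC hearts 1 and 2.

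Tgfb2, a TGF-β ligand, had 10.7, 12.9, 14.3 and 12.9 CPM in sham-operated and 33.5, 40.4, 23.5 and 28.8 in banded control hearts, and 14.6, 15.97, 15.4 and 16.1 in sham-operated and 83.6, 79.4, 99.8 and 68.3 in banded Trbp-cKO hearts. The 4 Trbp-cKO TAC hearts exceeded all others, and control TAC hearts exceeded all sham hearts. TAC raised Tgfb2 in both genotypes, by 1.31 in control and 2.41 in Trbp-cKO hearts, and the log2 interaction was 1.10 (SE 0.21, adjusted p = 0.026). This call held in 11 of 16 fits that each left out 1 heart, with log2 values of 0.99 to 1.24, and was lost without control sham replicate 3 or 4 or Trbp-cKO sham replicate 2, 3 or 4. Tgfb3, another ligand, had an interaction of 1.11 that missed the adjusted threshold (adjusted p = 0.123), as did that of the receptor Tgfbr1, 0.62 (adjusted p = 0.213), and that of the binding protein Ltbp2, 0.50 (adjusted p = 0.682). DESeq2 called Tgfb3 and neither of the others. Ltbp2 was higher in control TAC replicates 1 and 2, at 85.1, 111, 33.3 and 45.5 CPM for the 4 hearts. Its interaction was 1.29 (adjusted p = 0.218) without those 2, and 0.19 to 0.83 with 1 heart left out. Bmp4, a ligand of the BMP branch, went the other way. It had 4.60, 3.81, 3.31 and 3.93 CPM in control sham hearts, the lowest 4 of all, and 15.7, 11.9, 11.6 and 8.74 in control TAC, 7.66, 7.94, 9.62 and 7.24 in Trbp-cKO sham hearts and 10.8, 8.33, 10.4 and 13.8 in those with TAC, which overlapped in part. TAC raised Bmp4 in control hearts, at 1.61 (adjusted p = 0.000352), while its effect in Trbp-cKO hearts was 0.42 (adjusted p = 0.17), for a log2 interaction of -1.20 (adjusted p = 0.0362) that held in 5 of 16 fits without 1 heart and was -0.97 (adjusted p = 0.0829) without control TAC hearts 1 and 2.

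Thbs1 (ENSMUSG00000040152, chromosome 2, 118111876 to 118127133) encodes thrombospondin 1, a matricellular protein that can activate latent TGF-β, and it had the largest interaction among named genes with a mean log2 CPM of at least 1. Its CPM was 243, 213, 262 and 55.0 in controls with sham surgery, 28.2, 46.1, 19.5 and 30.1 in controls with TAC, 18.2, 10.2, 11.7 and 10.3 in Trbp-cKO with sham surgery and 55.6, 42.2, 53.7 and 166 in Trbp-cKO with TAC. Of the 4 control sham hearts, 3 were the highest of all 16 and the Trbp-cKO sham hearts were the lowest. The deletion effect was -3.94 after sham (adjusted p = 0.00247) and 1.36 after TAC (adjusted p = 0.109), and the interaction was 5.30 (SE 0.70, adjusted p = 0.00273, edgeR's quasi-likelihood test).

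Col22a1, a collagen chain found at tissue junctions such as the tendon end of muscle, had 1.37, 1.43, 0.989 and 1.45 CPM in sham-operated and 2.60, 3.79, 1.36 and 1.53 in banded control hearts, and 0.4998, 0.271, 0.278 and 0.601 in sham-operated and 10.5, 14.2, 9.80 and 46.2 in banded Trbp-cKO hearts. Trbp-cKO hearts were the lowest after sham and the highest after TAC, and the log2 interaction was 4.81 (SE 0.72, adjusted p = 0.00635). Ccn4, a matricellular protein induced by Wnt signaling, lay between 0.381 and 1.76 CPM in the other 12 hearts and between 2.83 and 8.10 CPM in Trbp-cKO TAC hearts, with a log2 interaction of 2.82 (adjusted p = 0.0325) that held in 8 of 16 fits without 1 heart. Fbn2, the microfibril protein fibrillin 2, was low throughout, at 1.56 ± 0.311 CPM (SD, n = 4) in controls with sham surgery, 0.865 ± 0.218 in controls with TAC, 0.536 ± 0.186 in Trbp-cKO with sham surgery and 1.54 ± 0.874 in Trbp-cKO with TAC, and its interaction of 2.36 (adjusted p = 0.0364) held in 6 of the 16 fits. Efemp1, the elastic fiber protein fibulin 3, was a fall. Its CPM was 10.9, 9.84, 10.04 and 13.0 after sham and 4.84, 4.12, 7.19 and 6.41 after TAC in control hearts, against 10.9, 14.4, 15.7 and 13.7 after sham and 1.36, 2.43, 2.49 and 1.57 after TAC in Trbp-cKO hearts. TAC lowered Efemp1 in both genotypes and more so in Trbp-cKO hearts, whose 4 values were the lowest of all, giving a log2 interaction of -1.84 (SE 0.30, adjusted p = 0.00963).

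The 5 genes that the study followed as fibrotic had 0 called interactions by edgeR or DESeq2, with 1 at an unadjusted p under 0.05. Their log2 values were 0.52 for Col1a1 (adjusted p = 0.412), 0.44 for Col1a2 (adjusted p = 0.473), 0.31 for Col3a1 (adjusted p = 0.58), 0.96 for Col5a2 (adjusted p = 0.221) and 0.48 for Postn (adjusted p = 0.666). For Postn, the matricellular protein periostin, the deletion effect was 0.88 after sham and 1.36 after TAC, and the SE of the difference was 0.47. Postn had 388, 443, 150.2 and 195 CPM in control TAC hearts, and its interaction was 0.09 to 0.75 with 1 heart left out. In the same fits the values were 0.30 to 0.65 for Col1a1, 0.19 to 0.54 for Col1a2, 0.20 to 0.43 for Col3a1 and 0.55 to 1.14 for Col5a2. Without control TAC hearts 1 and 2 the values were 1.25 for Postn, 0.88 for Col1a1, 0.70 for Col1a2, 0.55 for Col3a1 and 1.27 for Col5a2, with adjusted p from 0.161 to 0.358. A p above the threshold does not show that the effect was equal in both settings. The study chose these 5 on the same hearts, so they are not independent evidence of a direction.

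Markers of activated fibroblasts were examined beside the matrix genes. Of 13 tested, 12 had an interaction above 0 and 2 were called higher, Ccn4 and Ddah1, with 5 at an unadjusted p under 0.05 and a median of 1.10. Their summed level ran from 245.4 to 399.1 CPM in control sham, 384.4 to 1044 in control TAC, 514.9 to 768 in Trbp-cKO sham hearts and 1421 to 3322 in those with TAC. No marker of the list lacked counts. Of 12 markers of fibroblasts in general, edgeR called 0 higher and 1 lower and DESeq2 0 higher and 2 lower, with 6 lower at an unadjusted p under 0.05 and a median of -0.58. Their summed level overlapped between the TAC groups, at 1664 to 1772 CPM in control sham, 1819 to 2592 in control TAC, 1834 to 2447 in Trbp-cKO sham hearts and 1768 to 2688 in those with TAC. Without Trbp-cKO TAC replicate 4 the median of the activated fibroblast markers was 0.61, and without control TAC hearts 1 and 2 that of the fibroblast markers was -0.32. Markers of smooth muscle cells and pericytes, a list that shares Acta2 with the activated fibroblasts, summed to 3117 to 3416 CPM in control sham, 2511 to 3810 in control TAC, 3314 to 3486 in Trbp-cKO sham hearts and 4919 to 5543 in those with TAC, above all other hearts. Des, which encodes desmin and is also expressed in cardiomyocytes, made up most of that sum, at 3703 ± 201 CPM (SD, n = 4) in Trbp-cKO TAC hearts, and its interaction was 1.198 (adjusted p = 0.0608). Of these 12 markers edgeR called 0, with 2 higher and 2 lower at an unadjusted p under 0.05, and DESeq2 called 2 higher, Acta2 and Des. The part of these cells in the matrix results was not tested. In bulk tissue, a change in the number of cells of a type and a change in RNA per cell cannot be told apart.

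**Figure D2:**
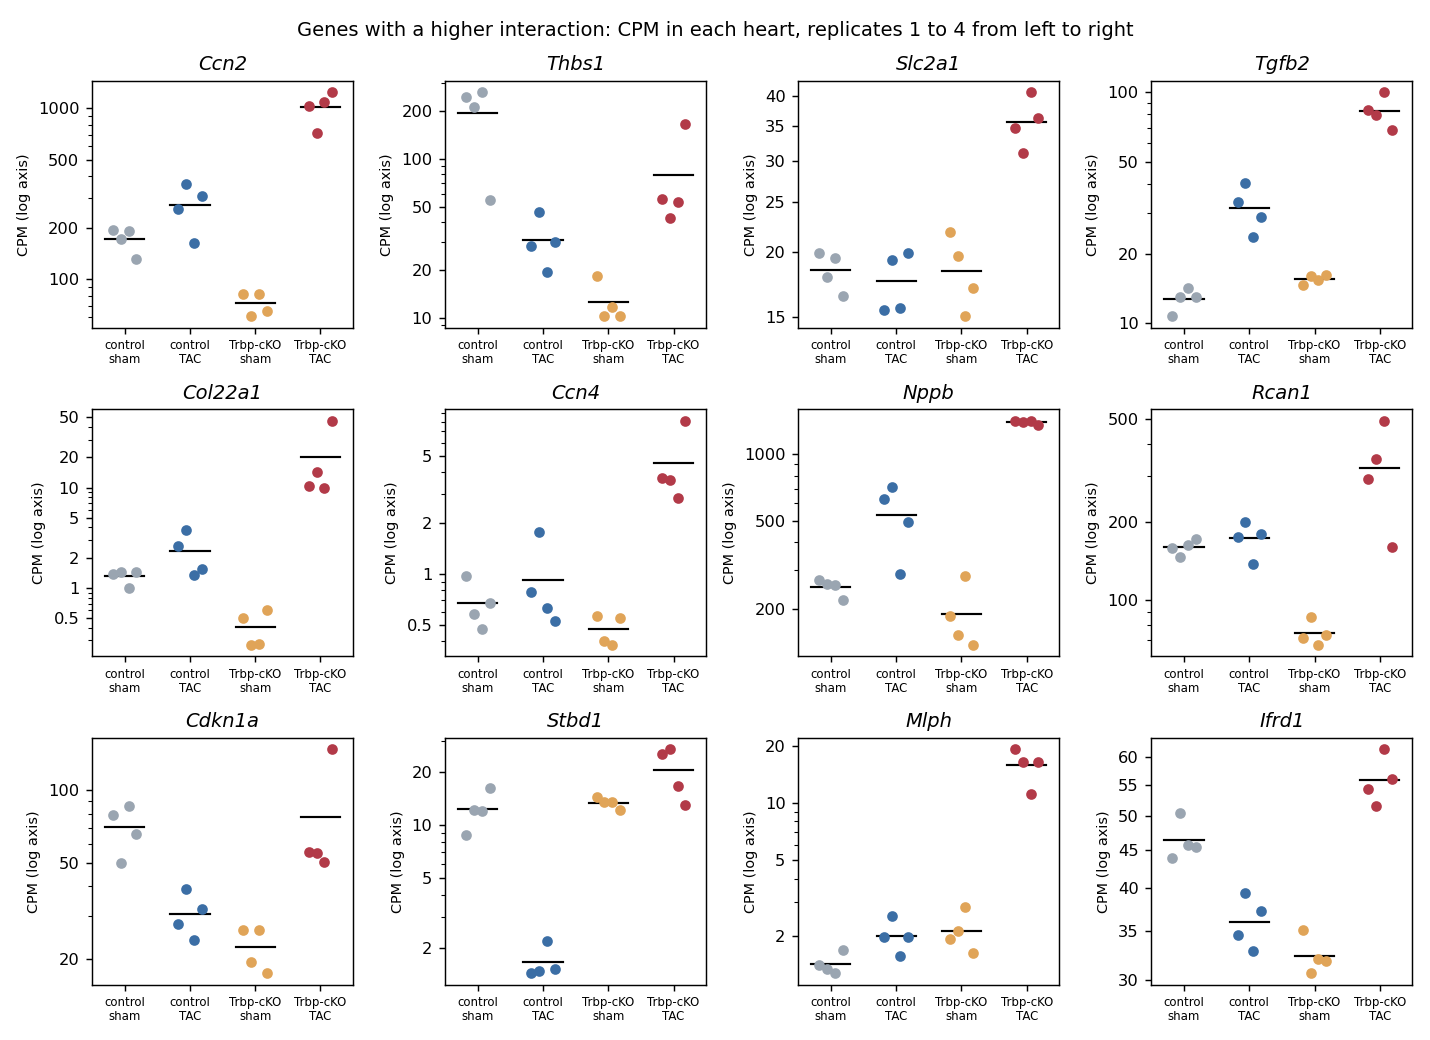
CPM (log axis) of 12 genes with a higher interaction in each of the 16 hearts, with replicates 1 to 4 of a group from left to right and the group mean as a line. Trbp-cKO TAC hearts are the highest for Ccn2, Slc2a1, Tgfb2, Col22a1, Ccn4, Nppb, Mlph and Ifrd1, control TAC hearts are the lowest for Stbd1, and Thbs1 and Cdkn1a are high in control sham and in Trbp-cKO TAC hearts.

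Among 17 tested fetal and hypertrophic cardiac genes, 4 had a higher interaction (Nppb, Rcan1, Ccn2 and Myl4), 0 a lower in edgeR's test, and 8 and 0 passed an unadjusted p of 0.05, with a median of 0.97. DESeq2 called 7 higher and 0 lower, adding Nppa, Acta2 and Uchl1. Nppb, which encodes the natriuretic peptide BNP, had 270.0, 258, 255 and 219.6 CPM in sham-operated and 631, 714, 288 and 496 in banded control hearts, and 186, 153, 282 and 138 in sham-operated and 1408, 1392, 1418 and 1355 in banded Trbp-cKO hearts. The Trbp-cKO TAC hearts were nearly equal to each other and above all the rest, whereas the sham groups overlapped. The log2 interaction was 1.79 (SE 0.36, adjusted p = 0.03), held in 10 of 16 fits without 1 heart at 1.59 to 2.05. Nppa, which encodes the peptide ANP, was also highest in Trbp-cKO TAC hearts, at 732 ± 214 CPM (SD, n = 4) in control sham, 1266 ± 213 in Trbp-cKO sham, 2919 ± 971 in control TAC and 12407 ± 2303 in Trbp-cKO TAC hearts. Its interaction of 1.296 did not pass edgeR's test (adjusted p = 0.112) and was called by DESeq2. Myl4, the atrial and fetal essential light chain of myosin, had 1.93, 1.97, 2.09 and 1.66 CPM in controls with sham surgery, 1.96, 1.80, 1.14 and 1.21 in controls with TAC, 2.79, 1.97, 2.24 and 2.13 in Trbp-cKO with sham surgery and 4.91, 3.94, 6.73 and 7.20 in Trbp-cKO with TAC. The last group exceeded all other hearts, and the interaction was 1.64 (SE 0.30, adjusted p = 0.0201), lost only without control sham replicate 3 or Trbp-cKO sham replicate 4 among the 16 fits. Of 11 tested markers of atrial tissue and the conduction system, Myl4 was the only call by edgeR, and Isl1 was without counts. The sum of these markers, which include Nppa, ran from 603.2 to 1064 CPM in control sham, 1674 to 3939 in control TAC, 1058 to 1583 in Trbp-cKO sham hearts and 10320 to 15821 in those with TAC. The part of atrial tissue in the Myl4 result was not tested. Acta2, smooth muscle actin, did not pass edgeR's test, with a log2 interaction of 1.17 (adjusted p = 0.156).

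Contractile genes that the study followed had 0 calls in edgeR's test, and DESeq2 called Myl9. The interaction was 1.09 for Myl9 (adjusted p = 0.163), 0.43 for Tpm2 (adjusted p = 0.475) and -0.45 for Tnni2 (adjusted p = 0.612) of the fast-twitch set. It was -1.11 for Myh7b (adjusted p = 0.179), 0.58 for Tnnc1 (adjusted p = 0.215) and -0.48 for Myl3 (adjusted p = 0.634) of the slow-twitch set. Of the 11 tested genes in each list, edgeR called 0, with 2 fast-twitch and 4 slow-twitch genes at an unadjusted p under 0.05. For Tnnc1, cardiac troponin C, the deletion effect was -1.74 after sham and -1.16 after TAC. Without control TAC hearts 1 and 2 the interaction was 1.52 for Myl9 (adjusted p = 0.0701) and -0.79 for Myh7b (adjusted p = 0.428). It was then 0.79 for Tpm2, -0.86 for Tnni2, -0.90 for Myl3 and 0.36 for Tnnc1, with adjusted p from 0.164 to 0.433. With 1 heart left out it was 0.27 to 0.59 for Tpm2, -0.64 to -0.25 for Tnni2 and -0.73 to -0.24 for Myl3. Sox6, a repressor of slow-twitch genes, had 12.4, 12.6, 13.4 and 13.1 CPM in control hearts after sham and 5.75, 5.92, 14.7 and 11.9 CPM after TAC, where replicates 1 and 2 were low, and its interaction was 0.45 (adjusted p = 0.682) with all hearts and -0.03 without those hearts. With 1 heart left out the Sox6 interaction was 0.26 to 0.73. Of 23 genes of the natriuretic, adrenergic, angiotensin and endothelin systems, 1 was called higher, Nppb, and 1 lower, with 5 and 1 at an unadjusted p under 0.05.

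The 6 smallest p-values belonged to Stbd1, Ccn2, Ifrd1, Efhd2, Mlph and Mafk. Stbd1 (ENSMUSG00000047963, chromosome 5, 92603041 to 92606579) encodes a protein that binds glycogen and carries it toward lysosomes. Its CPM was 8.79, 12.2, 12.03 and 16.2 after sham and 1.44, 1.48, 2.19 and 1.53 after TAC in control hearts, against 14.5, 13.5, 13.5 and 12.1 after sham and 25.4, 27.0, 16.6 and 13.0 after TAC in Trbp-cKO hearts. Here the control TAC hearts were the group that stood apart, below the other 12, while the sham groups and the Trbp-cKO TAC hearts overlapped. The log2 effect of TAC on Stbd1 was -2.89 in control hearts (adjusted p = 4.21e-05) and 0.61 in Trbp-cKO hearts (adjusted p = 0.0983). The interaction of 3.501 (SE 0.33, adjusted p = 0.000336, edgeR's quasi-likelihood test) was called under all 29 alternatives that gave it a test, with adjusted p from 1.89e-20 to 0.00929.

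Mlph encodes melanophilin, an adaptor between Rab27a and myosin Va in the transport of vesicles. It had 1.40, 1.34, 1.26 and 1.67 CPM in sham-operated and 1.96, 2.52, 1.56 and 1.97 in banded control hearts, and 1.91, 2.11, 2.83 and 1.62 in sham-operated and 19.2, 16.4, 11.1 and 16.4 in banded Trbp-cKO hearts. Each Trbp-cKO TAC heart was far above the other 12, and the interaction of 2.40 (SE 0.28, adjusted p = 0.00152) was also called under all 29 alternatives. Efhd2, a calcium-binding EF-hand protein, lay between 28.5 and 43.8 CPM in the other 12 hearts and had 109.8, 119, 100.1 and 123 CPM after TAC in Trbp-cKO hearts, for an interaction of 1.27 (adjusted p = 0.00152). Mafk, a small Maf transcription factor, had 118, 106, 129.9 and 159 CPM in Trbp-cKO TAC hearts against 42.5 to 74.0 CPM elsewhere, and an interaction of 1.60 (adjusted p = 0.00152). Ifrd1, a transcriptional coregulator, crossed over. It was lower in Trbp-cKO than in control hearts after sham, with 32.4 ± 1.88 against 46.3 ± 2.84 CPM (SD, n = 4), and higher after TAC, with 55.9 ± 4.19 against 36.0 ± 2.85 CPM, without overlap in either setting. The interaction was 1.15 (SE 0.12, adjusted p = 0.000604).

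Glucose uptake and glycolysis had 1 call among 25 tested genes, Slc2a1, which encodes the glucose transporter GLUT1. The transporter had 19.9, 17.9, 19.5 and 16.4 CPM in controls with sham surgery, 15.5, 19.3, 15.6 and 20.0 in controls with TAC, 21.9, 19.7, 15.05 and 17.0 in Trbp-cKO with sham surgery and 34.6, 31.0, 40.6 and 36.3 in Trbp-cKO with TAC. The first 3 groups overlapped and the last lay above them, with a log2 interaction of 1.02 (SE 0.18, adjusted p = 0.018) that was lost without control sham replicate 3 alone among the 16 fits. Gadd45g, a growth arrest gene induced by stress, had 17.6, 26.9, 58.2 and 39.1 CPM in Trbp-cKO TAC hearts against 5.02 to 15.3 CPM elsewhere, and its interaction of 2.40 (adjusted p = 0.0375) held in 7 of the 16. Ddah1, an enzyme that clears the nitric oxide synthase inhibitor ADMA, had 23.3, 19.7, 29.3 and 36.9 CPM against 9.32 to 14.9 CPM elsewhere, with an interaction of 1.10 (adjusted p = 0.022) that held in 11. Fatty acid uptake and oxidation (34 tested), nuclear subunits of the respiratory chain and ATP synthase (71) and calcium handling and ion channels (33) had 0 calls in edgeR's test, with 4, 2 and 3 genes at an unadjusted p under 0.05. DESeq2 called 2 genes of the first list, 1 in each direction, and 0 of the others.

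Immediate early genes are transcription factors and regulators that cells switch on within minutes of a stimulus. All 26 tested had an interaction above 0, 3 were called higher (Egr2, Nr4a3 and Atf3), 11 were higher at an unadjusted p under 0.05, and the median was 0.90. Without control sham replicate 2 the median was 0.48 with 3 calls, and without control TAC hearts 1 and 2 it was 1.15 with 1 call. The median deletion effect was -0.71 after sham and 0.17 after TAC, while the median effect of TAC was -0.40 in control and 0.68 in Trbp-cKO hearts. Nr4a3, an orphan nuclear receptor, had 27.8, 72.7, 49.9 and 36.9 CPM after sham and 12.2, 11.5, 9.37 and 18.2 after TAC in control hearts, against 9.41, 8.66, 13.5 and 15.3 after sham and 23.4, 28.9, 15.5 and 11.6 after TAC in Trbp-cKO hearts. Control sham hearts were high, control TAC and Trbp-cKO sham hearts were low and overlapped, and Trbp-cKO TAC hearts bridged the groups. TAC was called lower in control hearts only, at -1.87 (adjusted p = 0.00654) against 0.76 in Trbp-cKO hearts (adjusted p = 0.171), and the interaction was 2.62 (SE 0.46, adjusted p = 0.0169). Egr2, a zinc finger transcription factor, had 5.35, 38.2, 8.35 and 4.09 CPM in sham-operated and 3.00, 6.92, 3.96 and 4.65 in banded control hearts, and 2.54, 3.55, 1.79 and 1.74 in sham-operated and 11.2, 11.5, 7.93 and 13.99 in banded Trbp-cKO hearts. Replicate 2 of control sham stood far above its group. The log2 interaction was 3.81 (adjusted p = 0.0356) with all hearts and 2.56 without that heart, where the call was kept. Atf3, a stress-induced bZIP factor, had 34.1 ± 19.2 CPM (SD, n = 4) in controls with sham surgery, 20.9 ± 5.42 in controls with TAC, 13.8 ± 1.37 in Trbp-cKO with sham surgery and 36.2 ± 13.1 in Trbp-cKO with TAC and an interaction of 2.099 (adjusted p = 0.0364). The calls of Egr2 and Atf3 held in 6 and 6 of 16 fits without 1 heart.

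The promoter of Nr4a3 is shown because the gene is a classic target of cyclic AMP signaling. It lies at chr4:48045055-48045354 on the forward strand of GRCm38.p6 and was read from RefSeq, 250 bases before the start of transcription and 50 after it. Capitals mark the half-site of the cyclic AMP response element, TGACGT, searched on both strands.
Nr4a3: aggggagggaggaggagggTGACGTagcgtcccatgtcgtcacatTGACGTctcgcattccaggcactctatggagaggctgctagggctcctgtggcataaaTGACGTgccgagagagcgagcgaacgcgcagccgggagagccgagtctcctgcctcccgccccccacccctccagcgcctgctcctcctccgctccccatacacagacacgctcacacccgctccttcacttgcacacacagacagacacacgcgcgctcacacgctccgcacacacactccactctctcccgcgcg
The letters occur 3 times, 231, 205 and 147 bases before the start. Among 32851 promoters of the same length, 7.51% held them at least once, and of the 3 called immediate early genes they were found in 2, Nr4a3 and Atf3. A match of letters is a description of the sequence and not evidence of binding.

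Glucocorticoid targets and heat shock genes also had calls of a higher interaction. Of 14 glucocorticoid targets, 2 had a higher interaction (Cdkn1a and Errfi1) and 7 were higher at an unadjusted p under 0.05, with a median of 1.23, or 0.77 without Trbp-cKO TAC replicate 4. Errfi1, an inhibitor of the EGF receptor, had 85.9, 236, 147 and 71.4 CPM after sham and 23.1, 39.6, 27.4 and 37.1 after TAC in control hearts, against 36.8, 26.4, 34.6 and 29.2 after sham and 38.4, 27.4, 25.9 and 82.2 after TAC in Trbp-cKO hearts. Control sham hearts were the high group, apart from replicate 4 of Trbp-cKO TAC, and the interaction of 2.54 (adjusted p = 0.0394) held in 6 of 16 fits. Fkbp5, a cochaperone of the glucocorticoid receptor, had an interaction of 1.87 that did not pass edgeR's test (adjusted p = 0.122) and was called by DESeq2. Of 18 heat shock proteins and cochaperones, 17 had an interaction above 0, 9 at an unadjusted p under 0.05, and Hsp90aa1 was called. This inducible form of HSP90 had 432 ± 117 CPM (SD, n = 4) in sham-operated and 284 ± 52.98 in banded control hearts, and 186 ± 17.998 in sham-operated and 295 ± 54.4 in banded Trbp-cKO hearts, with an interaction of 1.27 (adjusted p = 0.0445) that held in 4 of 16 fits. The unfolded protein response had 0 calls by edgeR and 1, higher, by DESeq2 among 18 genes, and 9 higher at an unadjusted p under 0.05. The integrated stress response had 0 calls by either among 24, with 6 higher and 2 lower at an unadjusted p under 0.05, and its transcription factor Atf4 stood at 0.76 (adjusted p = 0.0609).

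An immediate early score, the mean log2 CPM of these genes in each heart, was 5.56 in control sham replicate 2, the highest of all, and 4.43 to 4.62 in the other control sham hearts. It ran from 4.13 to 5.07 in control TAC, from 4.02 to 4.19 in Trbp-cKO sham hearts and from 4.43 to 5.09 in those with TAC. With this score in the fit, an alternative added after the data had been seen, 27 genes were called, 23 of them among the 174. The median interaction of the immediate early genes was then 0.05. The score is made of these same genes, so a median near 0 is built into this fit. Ccn2 (2.91, adjusted p = 0.0115), Mafk (1.25, adjusted p = 0.0212), Stbd1 and Mlph were still called, and Thbs1 (4.34, adjusted p = 0.052) and Nr4a3 (2.24, adjusted p = 0.146) were not.

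Genes of the circadian clock were called in both arms. CLOCK and BMAL1, the product of Arntl, bind E-box sequences and drive Per and Cry genes and the bZIP factors Dbp, Tef and Hlf, which bind D-box sequences. Nfil3, a repressor at D-boxes, cycles in step with Arntl and was counted with the activator arm. In that arm 3 of 7 genes had a higher interaction (Arntl, Clock and Nfil3) and 0 a lower in edgeR's test, with a median of 0.89. In the repressor arm, which holds the Per, Nr1d and D-box genes, 4 of 11 were lower (Per3, Dbp, Tef and Hlf) and 0 higher in edgeR's test, with 6 lower and 1 higher at an unadjusted p under 0.05 and a median of -1.15. DESeq2 called 1 higher and 4 lower.

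Dbp had 28.6, 21.1, 37.0 and 35.0 CPM in controls with sham surgery, 71.4, 59.1, 73.7 and 75.9 in controls with TAC, 189.7, 169, 153 and 157 in Trbp-cKO with sham surgery and 85.6, 93.2, 31.8 and 43.9 in Trbp-cKO with TAC. Trbp-cKO sham hearts were the highest, control sham hearts were low, and the Trbp-cKO TAC hearts split, replicates 1 and 2 lying above and replicates 3 and 4 below the middle of their group. The deletion effect was 2.46 after sham (adjusted p = 0.000793) and -0.14 after TAC (adjusted p = 0.808), for an interaction of -2.60 (SE 0.39, adjusted p = 0.00646). Per3, a period gene, showed the same order, with 18.4, 17.3, 17.4 and 20.3 CPM after sham and 40.8, 41.6, 46.9 and 44.0 after TAC in control hearts, against 47.5, 60.1, 62.7 and 53.5 after sham and 40.6, 40.0, 15.1 and 25.9 after TAC in Trbp-cKO hearts. Replicate 3 of Trbp-cKO TAC was lower than any control sham heart, while replicates 1 and 2 were close to the control TAC hearts. Its interaction was -2.12 (SE 0.32, adjusted p = 0.00635). Per3 overlaps Camta1 on the same strand and Dbp overlaps Sphk2 on the opposite strand, and how counting divided shared reads is not given in the sources used here.

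Arntl mirrored them, with 16.2, 20.3, 17.2 and 12.5 CPM in sham-operated and 8.46, 8.75, 3.00 and 2.65 in banded control hearts, and 2.11, 2.62, 3.16 and 3.18 in sham-operated and 3.39, 2.79, 17.9 and 14.9 in banded Trbp-cKO hearts. Replicates 3 and 4 of Trbp-cKO TAC lay in the range of control sham hearts and replicates 1 and 2 close to Trbp-cKO sham hearts, and control TAC hearts split as well. The log2 interaction of 3.35 (SE 0.76, adjusted p = 0.0475) held in 4 of 16 fits without 1 heart and was 4.36 (adjusted p = 0.0328) without control TAC hearts 1 and 2. Nfil3 had 15.7, 20.6, 17.8 and 20.1 CPM in controls with sham surgery, 7.67, 11.6, 11.4 and 11.6 in controls with TAC, 5.61, 5.75, 6.19 and 5.15 in Trbp-cKO with sham surgery and 10.5, 8.68, 17.9 and 10.6 in Trbp-cKO with TAC, with an interaction of 1.88 (adjusted p = 0.00635) that held in all 16 fits. Clock, at 43.8 ± 3.89 CPM (SD, n = 4) after sham and 34.1 ± 1.36 after TAC in control hearts, against 27.6 ± 3.21 after sham and 39.8 ± 5.26 after TAC in Trbp-cKO hearts, had 0.89 (adjusted p = 0.0154), also in all 16. Tef (-1.30, adjusted p = 0.0442) and Hlf (-1.72, adjusted p = 0.0416) held in 5 and 4. The interaction was not called for Per1 (0.41, adjusted p = 0.771), Nr1d1 (-0.39, adjusted p = 0.646) or Per2 (-1.15, adjusted p = 0.351).

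The promoters of Per3 and Tef are shown as examples of the 2 kinds of clock element, with the D-box TTATGTAA in capitals in Per3 and the E-box CACGTG in capitals in Tef. Both were read from RefSeq on GRCm38.p6, 250 bases before the start and 50 after it, and searched on both strands. Per3 is at chr4:151044616-151044915 on the reverse strand and Tef, for which 1 of 2 listed promoters is shown, at chr15:81802423-81802722 on the forward strand.
Per3: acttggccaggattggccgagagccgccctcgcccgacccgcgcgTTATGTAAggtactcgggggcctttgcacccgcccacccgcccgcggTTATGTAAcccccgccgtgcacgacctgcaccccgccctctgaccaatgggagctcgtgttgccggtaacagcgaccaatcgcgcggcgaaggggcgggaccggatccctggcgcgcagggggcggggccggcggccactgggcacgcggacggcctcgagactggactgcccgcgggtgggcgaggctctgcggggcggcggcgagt
Tef: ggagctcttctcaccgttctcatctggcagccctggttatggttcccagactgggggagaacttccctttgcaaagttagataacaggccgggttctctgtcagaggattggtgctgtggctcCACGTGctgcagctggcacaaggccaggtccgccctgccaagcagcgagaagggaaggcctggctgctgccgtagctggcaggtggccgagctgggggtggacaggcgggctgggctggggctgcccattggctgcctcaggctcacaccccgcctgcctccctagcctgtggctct
Per3 held 2 D-boxes, 205 and 158 bases before the start, and Tef held 1 E-box, 127 bases before it. Over all 32851 promoters, 0.938% held this D-box and 7.15% this E-box. Among the 7 called clock genes, the D-box was found in 1 and the E-box in 1, and no match in this window says only that these letters are not there.

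A clock score, the mean log2 CPM of the repressor arm minus that of the activator arm, separated the 2 control groups and Trbp-cKO sham hearts from each other but not Trbp-cKO TAC hearts from the control groups. It was 1.01, 0.62, 0.98 and 1.28 in control sham, 1.82, 1.90, 2.01 and 2.101 in control TAC, 2.67, 2.56, 2.67 and 2.61 in Trbp-cKO sham hearts and 2.23, 2.20, 0.70 and 1.53 in those with TAC. All Trbp-cKO sham hearts scored above all other hearts, and Trbp-cKO TAC hearts spanned nearly the range of both control groups. The time of day of collection is not given in the sources used here, and its part in these values was not tested. With the score in the fit only 2 genes were called, Stbd1 (4.44, adjusted p = 0.00149) and Mlph (3.17, adjusted p = 0.0247), while 1386 genes passed an unadjusted p of 0.05. The interaction kept its sign for 173 of the 174 genes in that fit, the exception being Arntl, and its size was 0.973 times the former value in the median. The median interaction of the repressor arm was then -0.02 and that of the activator arm 0.47. For Ccn2 it was 2.66 (adjusted p = 0.46), for Dbp -0.78 (adjusted p = 0.69) and for Per3 -0.59 (adjusted p = 0.709). The score shares its genes with the clock lists and differs between the groups.

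**Figure D3:**
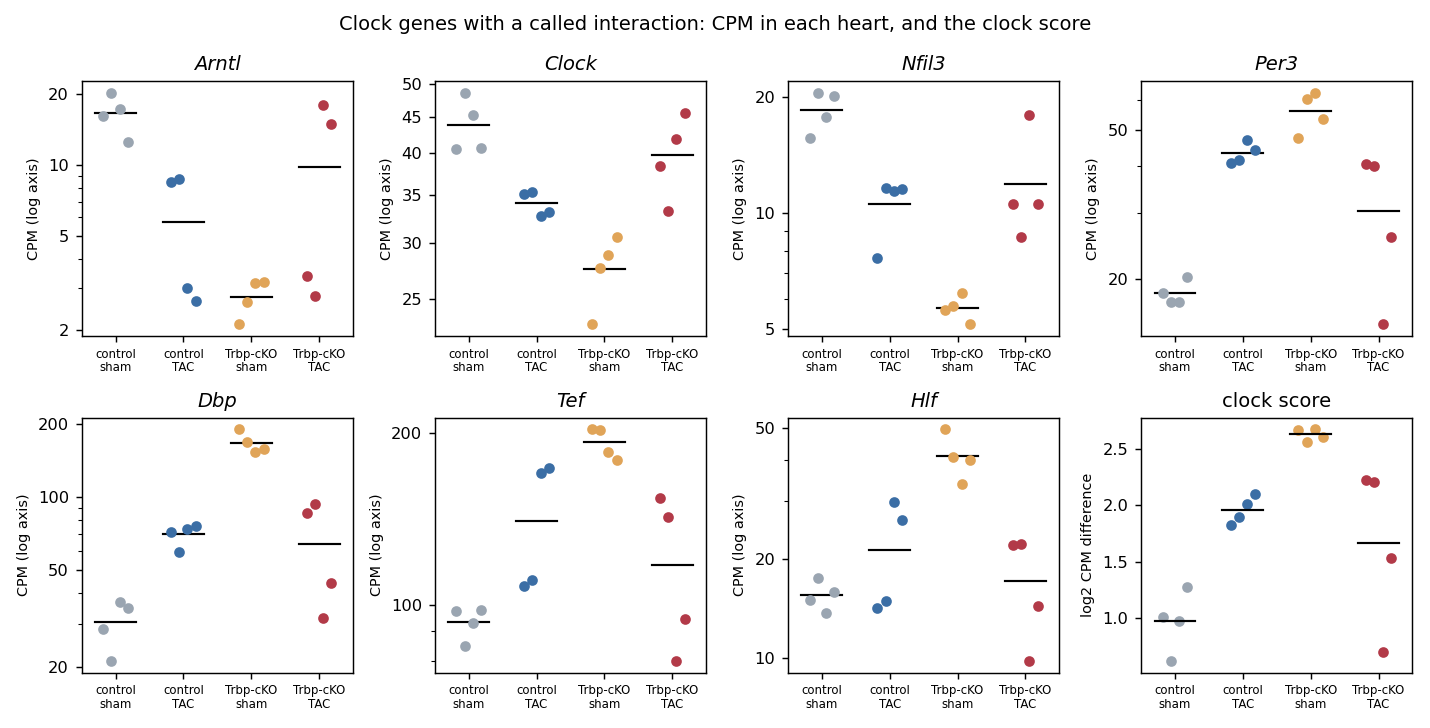
CPM (log axis) of the 7 clock genes with a called interaction in each heart, with the group mean as a line, and the clock score on a linear axis of log2 CPM difference. Trbp-cKO sham hearts have the highest Dbp, Per3, Tef, Hlf and clock score, and Trbp-cKO TAC replicates 3 and 4 lie apart from replicates 1 and 2 for Arntl, Per3, Dbp, Tef and Hlf.

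Penk, Gdf10 and Gstt2 were among the largest falls outside the clock. Penk, the precursor of the enkephalin peptides, had 5.90, 10.7, 6.60 and 9.85 CPM in sham-operated and 5.06, 2.49, 4.09 and 5.34 in banded control hearts, and 14.3, 12.2, 13.96 and 12.1 in sham-operated and 2.29, 1.65, 2.11 and 1.33 in banded Trbp-cKO hearts. Trbp-cKO hearts were the highest of all after sham and the lowest of all after TAC. TAC was called lower in both genotypes, at -0.96 in control (adjusted p = 0.0305) and -2.83 in Trbp-cKO hearts (adjusted p = 1.12e-05), and the interaction was -1.87 (SE 0.34, adjusted p = 0.0194), lost only without control sham replicate 3 among the 16 fits. Gdf10, a ligand of the TGF-β superfamily, had 2.19, 2.91, 1.57 and 3.05 CPM in controls with sham surgery, 1.87, 2.28, 3.63 and 3.97 in controls with TAC, 5.43, 7.46, 6.70 and 6.38 in Trbp-cKO with sham surgery and 1.38, 2.74, 2.14 and 1.11 in Trbp-cKO with TAC. Only the Trbp-cKO sham hearts stood apart, above the other 12, for an interaction of -2.09 (adjusted p = 0.0325) that held in 9 of 16 fits. Gstt2, a glutathione transferase, had 5.19, 5.69, 4.38 and 5.57 CPM after sham and 12.7, 9.92, 6.81 and 7.14 after TAC in control hearts, against 10.7, 13.4, 14.7 and 11.5 after sham and 6.42, 5.23, 5.18 and 8.21 after TAC in Trbp-cKO hearts. It was raised by either the deletion or TAC and was close to control sham hearts with both, at an interaction of -1.82 (SE 0.28, adjusted p = 0.00775) that held in all 16 fits.

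Other falls were less steady when hearts were left out. Prnd, the prion-like protein doppel, had 16.7, 16.7, 6.77 and 5.00 CPM in control TAC hearts, where replicates 1 and 2 were above all other hearts, and 3.74 ± 0.360 in control sham, 10.8 ± 3.38 in Trbp-cKO sham hearts and 5.44 ± 2.09 in those with TAC (SD, n = 4). Its interaction was -2.58 (adjusted p = 0.0355) with all hearts and -1.65 (adjusted p = 0.0932) without control TAC hearts 1 and 2. Prnd overlaps the readthrough gene Prn on the same strand. Abca6, a lipid transporter, had -2.47 (adjusted p = 0.0356), Hmcn2, the basement membrane protein hemicentin 2, -2.004 (adjusted p = 0.0437) and Ddx60, an interferon-induced helicase, -2.08 (adjusted p = 0.0311). Without control TAC hearts 1 and 2 the interaction of Ddx60 was -1.58 (adjusted p = 0.08) and that of Hmcn2 -1.85 (adjusted p = 0.0978). With all hearts but 1, the calls of Abca6, Hmcn2 and Ddx60 held in 5, 4 and 7 of 16 fits. Ddx60 had its highest group mean in Trbp-cKO sham hearts, at 11.2, 7.40, 9.38 and 8.85 CPM against 3.16 ± 0.562 CPM (SD, n = 4) in control sham hearts.

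**Figure D4:**
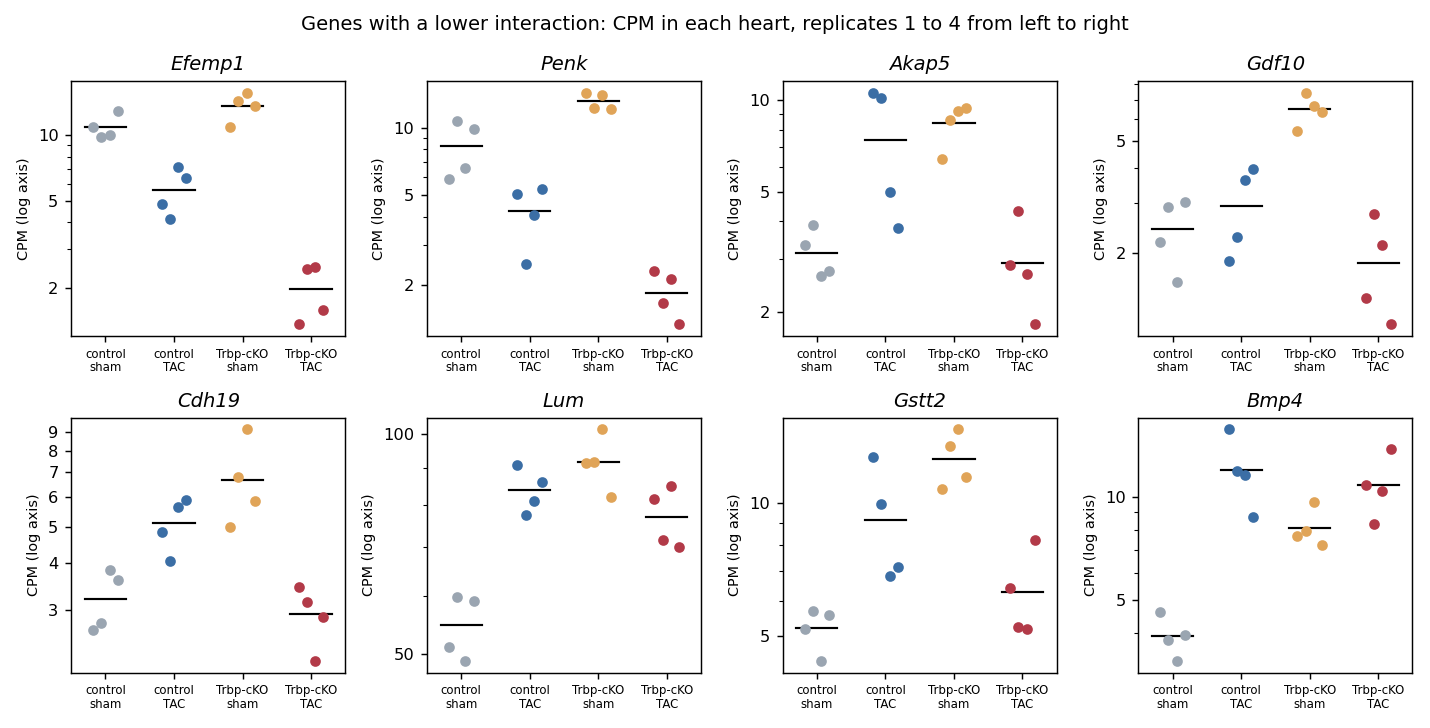
CPM (log axis) of 8 genes with a lower interaction in each of the 16 hearts, with replicates 1 to 4 of a group from left to right and the group mean as a line. Trbp-cKO TAC hearts are the lowest for Efemp1 and Penk, Trbp-cKO sham hearts are the highest for Penk and Gdf10, and control sham hearts are the lowest for Lum and Bmp4.

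Markers of other cell types gave 4 falls. Lum, the fibroblast proteoglycan lumican, had 51.1, 59.8, 48.9 and 59.0 CPM in sham-operated and 90.8, 77.5, 81.1 and 86.1 in banded control hearts, and 91.3, 91.5, 102 and 82.0 in sham-operated and 81.4, 71.6, 84.9 and 70.2 in banded Trbp-cKO hearts. Control sham hearts were below all others and the remaining groups lay close together, with an interaction of -0.86 (SE 0.15, adjusted p = 0.0129). Timd4, a receptor of resident macrophages for dying cells, was low throughout. It had 1.32 ± 0.081 CPM in control sham and 1.38 ± 0.684 in control TAC hearts (SD, n = 4). In Trbp-cKO hearts it had 2.67 ± 0.299 CPM after sham and 0.449 ± 0.252 after TAC. The deletion effect was 1.02 after sham (adjusted p = 0.212) and -1.62 after TAC (adjusted p = 0.0306). Its interaction of -2.64 (adjusted p = 0.0353) held in 5 of 16 fits. Of the 17 macrophage and monocyte markers it was the only call by edgeR, and their sum ran from 364.5 to 587.8 CPM over all 16 hearts. Cdh19 and Gfra3, a receptor of the neurotrophic factor artemin, were called among 12 markers of Schwann cells and neurons, with 4 lower at an unadjusted p under 0.05 and a median of -0.33. That median was -0.61 without control sham replicate 2, -0.21 without control sham replicate 3, -0.20 without control TAC replicate 2 and -0.17 without control TAC hearts 1 and 2. Gfra3 had 1.88 ± 0.668 CPM in control sham and 1.97 ± 0.408 in control TAC hearts (SD, n = 4). In Trbp-cKO hearts it had 2.78 ± 0.846 CPM after sham and 0.787 ± 0.296 after TAC. Its interaction of -1.88 (adjusted p = 0.0478) held in 3 of 16 fits. The sum of these 12 markers was 76.9 to 136.9 CPM in control sham, 72.9 to 157.7 in control TAC, 93.7 to 165.6 in Trbp-cKO sham hearts and 70.8 to 126.1 in those with TAC, all overlapping. The part of nerve tissue in these results was not tested.

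Interferon-stimulated genes shared a sign. All 26 tested had an interaction below 0, 19 of them at an unadjusted p under 0.05, with a median of -1.09, but 0 were called by edgeR's quasi-likelihood test, where the smallest adjusted p was 0.114, while DESeq2 called 5. With 1 heart left out, edgeR called 1 lower without control sham replicate 1, 1 lower without control TAC replicate 3 and 0 in the other 14 fits. Without control TAC hearts 1 and 2 the median was -0.52 and edgeR called 0. Their median deletion effect was 0.78 after sham and -0.24 after TAC, and their median response to TAC was 0.53 in control and -0.46 in Trbp-cKO hearts. Oasl2, an induced antiviral gene, had -1.49 (adjusted p = 0.142). The interferon score, a mean log2 CPM of these genes, was 3.47 and 3.64 in control TAC hearts 1 and 2 and 2.64 and 2.78 in hearts 3 and 4. It ran from 2.44 to 3.00 in control sham, from 2.97 to 3.58 in Trbp-cKO sham hearts and from 2.72 to 3.24 in those with TAC. The hearts with a high mitochondrial share were thus those with a high interferon score in their group, and the part of either in the result was not tested.

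Protein genes of the mitochondrial chromosome also shared a sign, with 13 of 13 below 0, 6 at an unadjusted p under 0.05 and a median of -0.64. Of these, edgeR called 0 with all hearts and 1 lower without control TAC replicate 4, and DESeq2 called 1 lower. Without control TAC hearts 1 and 2, whose mitochondrial share was the highest, the median was -0.17. Endothelial markers had 0 calls by edgeR among 12, 5 lower at an unadjusted p under 0.05 and a median of -0.56, and cell cycle genes had 0 calls among 30, 5 lower and a median of -0.52. Without those hearts the medians were -0.09 and -0.36, and without Trbp-cKO sham replicate 3 the endothelial median was -0.37. MicroRNA processing, the pathway in which Trbp acts, had 0 calls among 15, with 2 higher and 2 lower at an unadjusted p under 0.05 and a median of -0.03. Cytokines and chemokines (33 tested), cholesterol synthesis (20) and cardiomyocyte markers (15) had 0 calls each, with 7, 2 and 1 genes at an unadjusted p under 0.05. Markers of lymphocytes (16 tested), neutrophils and mast cells (9), erythroid cells and platelets (11), skeletal muscle (7) and mesothelial and valve cells (10) likewise had 0 calls in edgeR's test, with 1, 4, 1, 1 and 1 at that level. DESeq2 called 3 cytokines and chemokines (2 higher, 1 lower), 3 neutrophil and mast cell markers (2 higher, 1 lower), 1 lymphocyte marker and 1 cardiomyocyte marker, both lower, and 0 in the other lists of this paragraph apart from the mitochondrial one. In each list given here with 0 calls by edgeR, limma voom also called 0. Among the pathway and marker lists given here with calls, DESeq2 called over 1.5 times as many as edgeR in those that follow. They were immediate early genes (7 against 3), heat shock genes (3 against 1), glucocorticoid targets (4 against 2) and activated fibroblast markers (4 against 2). Fetal and hypertrophic cardiac genes (7 against 4), elastic fiber and matricellular genes (8 against 5) and glucose uptake and glycolysis (2 against 1) also belonged to them. So did macrophage and monocyte markers (3 against 1), fibroblast markers (2 against 1) and atrial markers (2 against 1). The last were the natriuretic, adrenergic, angiotensin and endothelin systems (4 against 2).

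**Figure D5:**
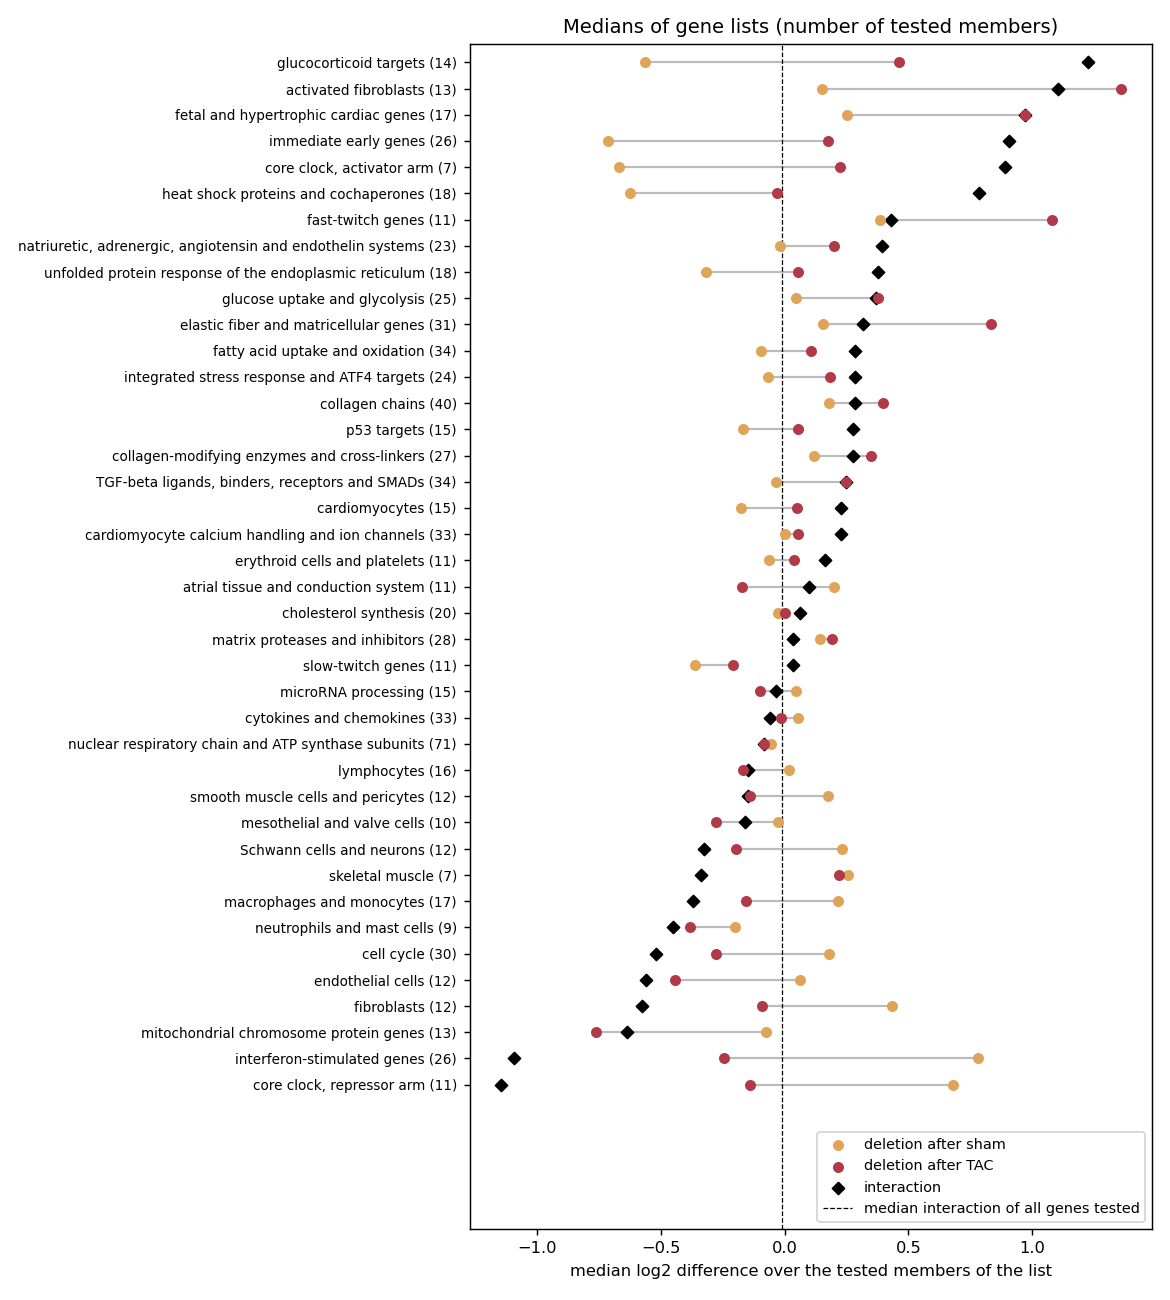
Median log2 difference of each gene list (number of tested members in brackets) for the deletion after sham, the deletion after TAC and the interaction, with the median interaction of all genes as a dashed line at -0.01. Glucocorticoid targets, activated fibroblasts, fetal and hypertrophic, immediate early and clock activator genes have the highest median interactions, between 0.89 and 1.23, and clock repressor and interferon-stimulated genes the lowest, at -1.15 and -1.09.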

How the data were processed

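The authors trimmed reads with Cutadapt 2.3, checked them with FastQC, aligned them to GRCm38 with HISAT2 2.1.0 and deposited gene counts made from StringTie 1.3.4 output with its count script. These counts come from coverage and a read length, so they may differ from fragments by a common factor, and the annotation release and any use of strand are not given in the sources used here. The 16 hearts were grouped by the labels. The replicates are separate hearts and the study describes the controls as littermates, with no litter given for each heart in the sources used here, and p-values measure the spread between hearts. Totals per heart were 45166994 to 68274222 counts, and 18506 of 55573 genes had 0 counts throughout.

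Symbols and positions came from GENCODE M21, which placed 55480 genes. Genes were filtered by filterByExpr, scaled by TMM and tested with edgeR 4.0.16 in R 4.3.3 (robust quasi-likelihood fit, 1 coefficient per group), since the exact test in the study compares pairs of groups and cannot test an interaction. P-values were adjusted by Benjamini-Hochberg over all 19955 genes, and a call needed an adjusted p of no more than 0.05 with a log2 size of 0.8 or more. Every adjusted p in the text is from this test unless another tool is named. Alternatives used limma 3.58.1 and DESeq2 1.42.0, other scalings and filters, a replicate block, clock and immediate early scores (mean log2 of CPM plus 0.5) and hearts left out.

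The text names the 12 highest and 12 lowest called interactions with a mean log2 CPM of 1 or more, the 6 smallest p, called list members and the study's own genes. Provisional symbols were passed over. A few genes that this rule selects are not reported here. Members and gene lists were chosen with earlier results of these data known. In a test on simulated counts of 19735 genes, 73.5% of 4-fold and 18.2% of 2-fold interactions were called, and 4 unchanged genes were called. Promoters and their coordinates are those of RefSeq on GRCm38.p6.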

Additional observations from a re-analysis of the deposited data

Results flagged for a closer look

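For 6 genes the deletion was called in opposite directions after sham and after TAC, and the interaction term tests that difference itself. The log2 interaction was 3.16 for Ccn2 (adjusted p = 0.000604), 2.98 for Cdkn1a (adjusted p = 0.00635) and 2.01 for Rcan1 (adjusted p = 0.0122), which were lower in Trbp-cKO hearts after sham and higher after TAC. It was -1.87 for Cdh19 (adjusted p = 0.00701), -2.76 for Akap5 (adjusted p = 0.00963) and -3.24 for 9430062P05Rik (adjusted p = 0.00635), which were the reverse.

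A single heart lay apart from the rest, relative to the range of its group, in 11 of 184 gene and group combinations. This share is close to the 1 in 20 or so that chance gives, and some of the gaps were small in CPM. Trbp-cKO TAC replicate 4 lay above its group for Col22a1 (46.2 CPM), Cdkn1a (148 CPM), Ccn4 (8.10 CPM) and Thbs1 (166 CPM). Replicate 3 of that group was high for Atf3 (55.7 CPM). Without replicate 4 the calls of Col22a1, Cdkn1a, Ccn4 and Thbs1 were kept. In control sham hearts, replicate 2 was high for Egr2 (38.2 CPM), replicate 3 low for Col22a1 (0.989 CPM), replicate 4 low for Prnd (3.21 CPM) and replicate 1 high for Ddx60 (4.01 CPM). In control TAC hearts, replicate 1 was low for Nfil3 (7.67 CPM) and replicate 3 high for Stbd1 (2.19 CPM).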

How the results depend on the processing

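The call was set by adjusted p and size, and the 174 calls (89 higher, 85 lower) depended on the setting more than the signs did. All 174 genes kept their sign in every setting in which they were tested, except Arntl with the clock score. Library size scaling gave 56 lower calls. DESeq2 gave 548 (253 higher, 295 lower). No filter on low counts gave 103, 39 of them lower, with more genes tested. The replicate block gave 54 (34 higher, 20 lower), 53 of them among the 174. Same-numbered hearts did not deviate together on average (mean correlation -0.042, against 0.014 for different numbers). Single pairs ran from -0.427 to 0.21, over 0.1 in 3 of 24. Whether such hearts shared a litter or a day is not given in the sources used here, and these correlations cannot decide it. The clock score gave 2 (2 higher, 0 lower, and 1386 genes at an unadjusted p under 0.05). Chosen after seeing the data, the immediate early score gave 27 (19 higher, 8 lower) and leaving out control TAC hearts 1 and 2 gave 52 lower. Signs turned with the clock score for Myl3 (0.27), Col3a1 (-0.0064), Arntl (-0.51) and Tarbp2 (-0.047), and without control TAC hearts 1 and 2 for Sox6 (-0.033) and Tarbp2 (-0.083). The cause of these changes between settings was not tested. Leaving out 1 heart gave 57 to 397 calls, 37 to 162 higher and 20 to 235 lower. Without control sham 1, 3 or 4 there were 99, 57 and 83, without control TAC 1 or 4 there were 86 and 397, without Trbp-cKO sham 2, 3 or 4 there were 86, 87 and 74, and without Trbp-cKO TAC 1 or 3 there were 99 and 97. With 4 hearts a group, interactions of 2-fold were mostly below what the test called on simulated counts.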
